A study of Mus musculus with 4 samples.

Results

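The H3K27me2 peaks of the maternal genome were compared between Ezh2m+/p+ and Ezh2m-/p+ mouse zygotes. All peaks of the maternal lists of both genotypes were taken, 5744 of Ezh2m+/p+ zygotes and 9606 of Ezh2m-/p+ zygotes, which makes 15350 of the 56036 peaks listed for both parental genomes. Each peak was placed in the overlapping class if it shared at least 1 bp with a peak of the other genotype's maternal list, and in the non-overlapping class otherwise. Eggs came from mothers on a C57BL/6J background that were Ezh2 fl/fl (Ezh2m+/p+ zygotes) or Ezh2 fl/fl;Gdf9-Cre (Ezh2m-/p+ zygotes), and sperm from PWK/PhJ males. Both groups therefore descended from floxed mothers, and the floxed exon was removed only in the Cre group, in oocytes, where the Gdf9 promoter drives Cre. The paternal Ezh2 allele was wild type in both groups. Zygotes were made by in vitro fertilization and collected at pronuclear stage 5 without polar bodies. Their native chromatin was digested, precipitated with an H3K27me2 antibody and sequenced (ULI-NChIP-seq, a protocol for very few cells), with 1 H3K27me2 library and 1 input library without antibody per genotype.

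H3K27me2 is the dimethylated form of lysine 27 of histone H3. It is written by Polycomb repressive complex 2 (PRC2), in which EZH2 or its homologue EZH1 is the catalytic subunit and EED and SUZ12 are core partners, and the same complex also makes H3K27me3, the mark best known for keeping developmental genes silent. In many cell types H3K27me2 is the more widespread of these marks and lies over gene bodies and intergenic sequence. H3K27me3 laid down in the oocyte silences the maternal allele of a small group of genes in the early embryo, a form of imprinting that does not need DNA methylation.

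With 1 library per genotype there is no replicate check and no p-value, and the 95% Wilson intervals given with shares cover counting error only. Genotypes are named as the lists are named. The sources used here point both ways on whether these names are right: the study gives lists of the same sizes to the same genotypes, but its account of the annotation categories leaves the naming in doubt. Reads over the floxed exon of Ezh2 are not part of a peak list, so the names were not checked against the deletion. Every direction between the genotypes would turn if the names were exchanged. The lists do not give the reads behind a peak. In the methods of the study, the H3K27me2 and input libraries of Ezh2m-/p+ zygotes are the less deeply sequenced ones, whereas coverage ran the other way. Reads covered a median of 25.0% of a maternal chromosome in Ezh2m+/p+ zygotes and of 35.5% in Ezh2m-/p+ zygotes, at a ratio from 1.36 on chromosome 11 to 1.59 on chromosome X. The part of depth and coverage in the larger number of Ezh2m-/p+ peaks was not tested.

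The following stretches of reference sequence (GRCm38, plus strand) show what kind of DNA lay under peaks with large folds in each class. Capitals mark CG dinucleotides, the main sites of DNA methylation in mammals. The first set holds the central 200 bases of the overlap for 3 of the 4 pairs whose smaller fold was largest, named by the gene that the lists assign.

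Rxra, chr2:27612901-27613100: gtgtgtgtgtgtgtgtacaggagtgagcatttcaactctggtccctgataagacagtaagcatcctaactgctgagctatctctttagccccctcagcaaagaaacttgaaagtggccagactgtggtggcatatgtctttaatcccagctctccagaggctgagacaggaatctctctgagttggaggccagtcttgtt
Ttc7b, chr12:100486401-100486600: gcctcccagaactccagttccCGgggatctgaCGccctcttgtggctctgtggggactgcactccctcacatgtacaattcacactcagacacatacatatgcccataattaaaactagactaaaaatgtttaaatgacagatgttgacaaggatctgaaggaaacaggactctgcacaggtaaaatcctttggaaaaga
5330413P13Rik, chr2:131737901-131738100: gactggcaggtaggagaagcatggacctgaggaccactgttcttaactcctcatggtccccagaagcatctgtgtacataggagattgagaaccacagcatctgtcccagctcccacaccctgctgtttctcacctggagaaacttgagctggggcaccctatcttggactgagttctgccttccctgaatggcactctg

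The next set holds the central 200 bases of the peak of largest fold without an overlap, in the Ezh2m+/p+ list (Gm38404) and in the Ezh2m-/p+ list (Rhobtb2).

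Gm38404, chr6:127271801-127272000: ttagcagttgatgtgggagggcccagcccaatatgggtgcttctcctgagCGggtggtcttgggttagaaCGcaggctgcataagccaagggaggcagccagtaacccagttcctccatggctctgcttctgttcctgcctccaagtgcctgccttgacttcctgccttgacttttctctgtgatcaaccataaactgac
Rhobtb2, chr14:69817501-69817700: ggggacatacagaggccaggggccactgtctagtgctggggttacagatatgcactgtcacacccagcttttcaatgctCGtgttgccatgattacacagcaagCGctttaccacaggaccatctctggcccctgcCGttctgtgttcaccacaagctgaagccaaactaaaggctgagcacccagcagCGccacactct

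These 5 stretches held between 0 and 4 CG dinucleotides each, and their GC share ran from 45.0% to 55.0%. Base composition was close in all classes of peaks. Overlapping peaks had a median GC share of 45.0% in the Ezh2m+/p+ list and 45.3% in the Ezh2m-/p+ list, and non-overlapping peaks 45.6% in both, against 41.4% in tiles of 2000 bp over the genome. The ratio of observed to expected CG dinucleotides had medians between 0.175 and 0.179 in these 4 classes and of 0.162 in the tiles. GC-rich peaks, with a GC share over 50%, were 10.1% of overlapping and 13.6% of non-overlapping Ezh2m+/p+ peaks, 10.3% and 14.7% of the Ezh2m-/p+ peaks, and 6.60% of the tiles. Soft-masked (repetitive) sequence made up a median of 21.6% of overlapping and 20.2% of non-overlapping Ezh2m+/p+ peaks, 20.1% and 19.3% of Ezh2m-/p+ peaks, and 26.6% of the tiles. The maternal peaks thus had a GC share and a CG ratio somewhat above those of the tiles, in both classes. Only reads over a variant between the parental strains can be given to a parent, and the part of this selection in the base composition was not tested.

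Most positions did not recur between the genotypes. In all, 544 Ezh2m+/p+ peaks (9.47%, 95% interval 8.74 to 10.3%) and 555 Ezh2m-/p+ peaks (5.78%, 5.33 to 6.26%) overlapped the other list. The lists covered 0.688% and 0.913% of the genome, and 6.01% and 4.53% of the base pairs they covered were shared. The share of peaks that would overlap by placement alone was not computed. With the Ezh2m-/p+ list limited by fold to the size of the other, the shares of overlapping peaks were 5.61% (5.04 to 6.23%) and 5.69% (5.12 to 6.32%), with intervals that overlap. They were 4.94% and 2.96% with a reciprocal overlap of 50%, 5.90% and 1.91% with a fold over 10 in both lists, and 3.39% and 4.90% with a fold up to 10 in both, where the order of the lists turned. All overlapping peaks formed 557 pairs, because 13 Ezh2m+/p+ and 2 Ezh2m-/p+ peaks had more than 1 partner. The overlap of a pair had a median of 1799 bp, a median of 63.1% of the Ezh2m+/p+ peak and 80.0% of the Ezh2m-/p+ peak. The Ezh2m-/p+ peak lay wholly inside the Ezh2m+/p+ peak in 181 pairs and the reverse held in 114, whereas only 11 pairs shared 200 bp or less. Both lists gave the same gene to 549 pairs (98.6%) and the same annotation category to 478 (85.8%).

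Long peaks overlapped the other list more often than short ones. The share was 5.56% (3.73 to 8.20%) of the Ezh2m+/p+ peaks up to 1500 bp long and 13.8% (10.9 to 17.3%) of those over 5000 bp. Among Ezh2m-/p+ peaks it was 3.44% (2.73 to 4.32%) and 11.9% (9.06 to 15.4%). A longer peak has more sequence with which to meet another, and the part of length in these shares was not tested. Overlapping peaks had a median length of 3199 bp in Ezh2m+/p+ and 2399 bp in Ezh2m-/p+ zygotes, and non-overlapping peaks 2999 and 2199 bp. The 95% interval of the overlapping Ezh2m+/p+ median, 2999 to 3199 bp, reached the non-overlapping one. With a reciprocal overlap of 50%, the overlapping medians were 2999 and 2799 bp and the non-overlapping ones 2999 and 2199 bp.

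**Figure D1:**
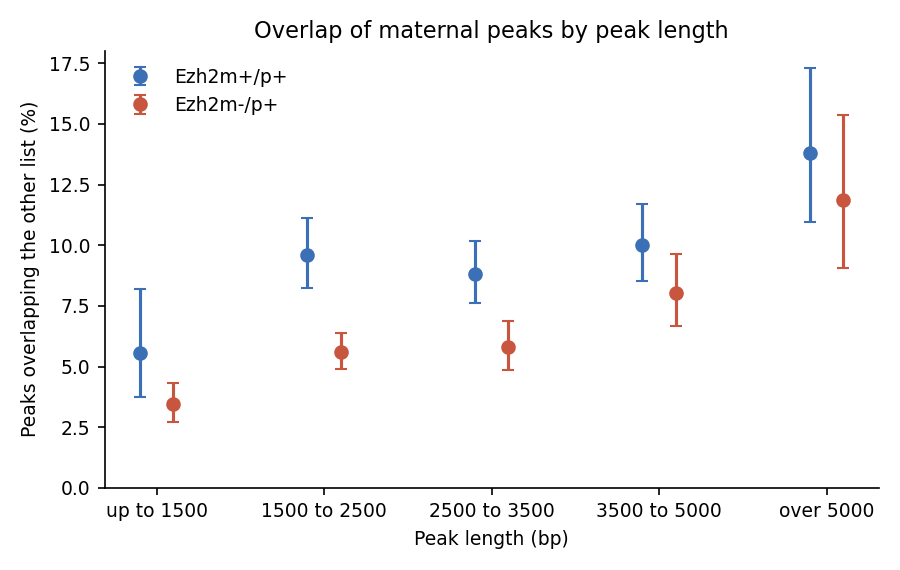
Share of maternal peaks that overlap the other genotype's maternal list (y axis, %) by peak length (x axis, bp) in Ezh2m+/p+ (blue) and Ezh2m-/p+ zygotes (red), with bars for the 95% Wilson interval. The lowest shares, 5.56% and 3.44%, belong to the shortest peaks, and the highest, 13.8% and 11.9%, to those over 5000 bp.

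High folds did not mark recurring peaks. The fold is the ratio of H3K27me2 to input reads that the authors' peak caller gives, and its median was 7.37 in both classes of Ezh2m+/p+ peaks, and 24.5 in overlapping and 23.7 in non-overlapping Ezh2m-/p+ peaks. Of the peaks with a fold over 10, 8.65% (7.57 to 9.86%) of the Ezh2m+/p+ and 5.13% (4.64 to 5.66%) of the Ezh2m-/p+ list overlapped, and of those with a fold up to 10, 10.0% (9.07 to 11.1%) and 7.74% (6.74 to 8.88%). The peaks with lower folds were also the longer ones, with medians of 3199 against 2399 bp and of 3399 against 1999 bp. Over the 557 pairs, the folds of the genotypes had a Spearman rho of -0.04 and the lengths one of 0.15, as a description of pairs that come from the same libraries.

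Many large folds lay on fixed steps. Read at a limit of 10, in 233 pairs (41.8%) the Ezh2m+/p+ fold was up to 10 and the Ezh2m-/p+ fold over 10, in 69 (12.4%) the reverse held, in 138 (24.8%) both were over 10 and in 117 (21%) neither was. In the whole lists, 2119 Ezh2m+/p+ peaks (36.9%) had a fold of 24.1 or more, each a whole multiple of 1.34 (within 0.01 of a step). Of the 7117 Ezh2m-/p+ peaks (74.1%) with a fold of 14.2 or more, 7101 were whole multiples of 0.765. A ratio moves in fixed steps where its denominator is the same for many peaks. The lists do not give the input reads, so the part of low input in these folds was not tested, and the fold of one list is not set against that of the other as an amount of H3K27me2.

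**Figure D2:**
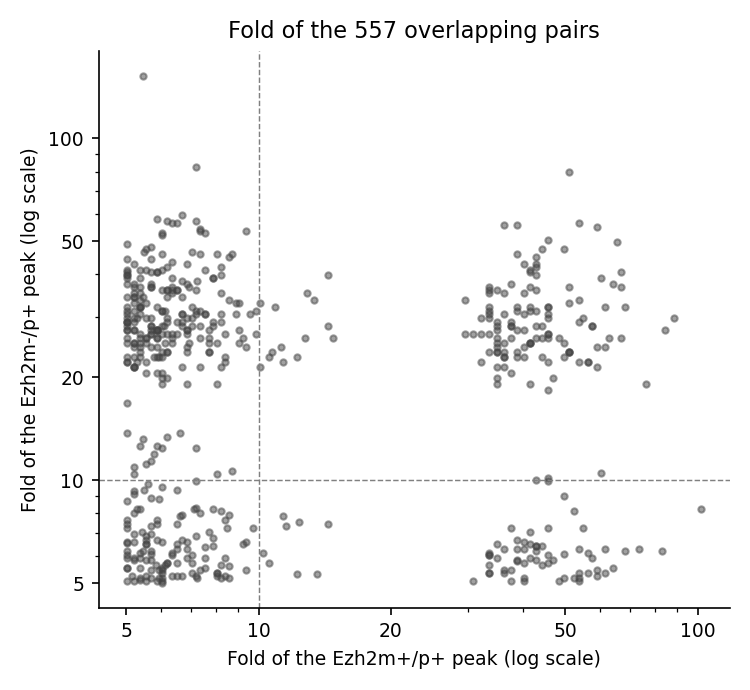
Fold over input of the Ezh2m+/p+ peak (x axis) and of the Ezh2m-/p+ peak (y axis) for each of the 557 overlapping pairs, both on log scales, with dashed lines at a fold of 10. The lines divide the points into 117, 233, 69 and 138 pairs, with a rho over all pairs of -0.04.

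The 12 pairs whose smaller fold was largest lay on 8 chromosomes, 4 of them on chromosome 2. This order serves only to choose pairs, since the folds of the lists may be on different scales. Sil1, which encodes a partner of the chaperone BiP in the endoplasmic reticulum, led with folds of 59.0 (Ezh2m+/p+) and 55.1 (Ezh2m-/p+ zygotes), in the third of its 9 introns. At Rxra, the gene of a retinoid X receptor, peaks of 53.6 and 56.6 shared 2799 bp of intergenic sequence, at -62041 and -61241 bp from the start site. At Ttc7b the folds were 50.9 and 79.5, and the whole Ezh2m+/p+ peak of 2599 bp lay inside the Ezh2m-/p+ peak of 5599 bp. At 5330413P13Rik both lists gave the same bounds, chr2:131736601-131739399, in intergenic sequence 108224 bp from the start site, with folds of 65.7 and 49.7. Lhx9, a LIM homeodomain factor of the developing gonad, had an intergenic pair of 44.2 and 47.4.

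The other pairs of this set lay in genes or near their starts as well as between genes. Those of Dcp1a, an mRNA decapping factor, and Vps13d, of a family of lipid transfer proteins, were annotated to exons, with folds of 42.9 and 42.1 and of 42.9 and 42.8. Promoter pairs, within 3 kb of a start site, were found at Efcab8 (49.6 and 47.4), Hspb1 (41.5 and 41.3) and Nbas (41.5 and 40.5), which acts in transport from the Golgi to the endoplasmic reticulum. Of the remaining pairs, that assigned to Gm14092 (45.6 and 50.5) lay in an intron of another gene, 84783 bp from the Gm14092 start site. That assigned to the methyltransferase gene Mettl4 (42.9 and 45.1) was intergenic.

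Hspb1, which encodes a small heat shock protein, was the only gene of these 12 with a start site inside the peak of both lists. Both peaks ran over chr5:135887601-135889599. Its promoter is shown because this domain was called in both genotypes, as the 250 bases before the start site (RefSeq, GRCm38.p6, plus strand, CG dinucleotides in capitals).

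Hspb1, chr5:135887669-135887918: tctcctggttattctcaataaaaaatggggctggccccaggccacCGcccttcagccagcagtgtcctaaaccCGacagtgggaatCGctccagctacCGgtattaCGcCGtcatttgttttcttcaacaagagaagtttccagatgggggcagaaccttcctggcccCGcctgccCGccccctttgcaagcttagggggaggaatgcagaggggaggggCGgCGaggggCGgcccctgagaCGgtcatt

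This stretch held 12 CG dinucleotides and a GC share of 59.2%, more than any of the stretches shown above, and 33.7% of the 32619 RefSeq promoters held as many or more in the same 250 bases before the start. The letters GAANNTTC, which make up the core of a heat shock element and read the same on both strands, occurred 2 times in it and at least once in 6.74% of these stretches of 250 bases. A match of letters is a description and not a site.

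Promoter windows (250 bases before to 50 after the start) that lay wholly in a peak belonged to 199 of 26794 genes (0.743%, 0.647 to 0.853%) for the Ezh2m+/p+ list and 311 (1.16%, 1.04 to 1.30%) for the Ezh2m-/p+ list, with 14 genes in both lists. The lists covered 0.688% and 0.913% of the genome, but this counts single bases and not whole windows by gene. The share of genes that placement alone would give was not computed. Besides Hspb1 these 14 included Il3, a cytokine (5.53 and 6.88), Cd3g, a subunit of the T cell receptor complex (6.70 and 7.94), Pvalb, a calcium-binding protein (6.70 and 59.7), Ephx1, an epoxide hydrolase (5.03 and 41.3), Tnfrsf13c, a B cell receptor for BAFF (7.54 and 52.8), and C330011F03Rik (67 and 40.5). These genes were named after their values were seen.

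Shared genes were more common than shared positions. The lists assigned their peaks to 3670 genes in Ezh2m+/p+ zygotes and to 5326 in Ezh2m-/p+ zygotes, of which 2129 were in both lists, 58.0% (56.4 to 59.6%) of the former and 40.0% (38.7 to 41.3%) of the latter. These shares were 20.4% and 12.2% with only the peaks within 3 kb of a start site, and 55.9% and 23.3% with a fold over 10 in both lists. Of these 2129 genes, 470 had peaks that overlapped between the genotypes and 1659 had peaks at separate positions only. A further 1541 genes were in the Ezh2m+/p+ list alone and 3197 in the Ezh2m-/p+ list alone. Among the 21631 protein-coding genes, 14.6% had an Ezh2m+/p+ peak, 21.1% an Ezh2m-/p+ peak, 8.44% both and 1.91% overlapping peaks. A peak was assigned to the nearest start site, so that a gene need not hold its peak. The centre of 52.9% of Ezh2m+/p+ peaks and 51.1% of Ezh2m-/p+ peaks lay in a protein-coding gene, and of those 82.3% and 82.2% were assigned to a gene that held them.

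Genes with many peaks in one genotype had peaks in the other more often than genes with 1 peak. Of the 2523 genes with a single Ezh2m+/p+ peak, 49.1% (47.2 to 51.1%) had an Ezh2m-/p+ peak, and of the 91 genes with 5 or more, 89 did (97.8%, 92.3 to 99.4%). In the other direction the shares were 29.4% (27.9 to 31.0%) of 3394 genes and 86.2% (250 of 290, 81.8 to 89.7%). The genes with 5 or more peaks were also long, with a median of 284 kb for Ezh2m+/p+ and 144 kb for Ezh2m-/p+ peaks, against 31.1 and 27.1 kb for genes with 1.

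Tns3, the gene of the focal adhesion protein tensin 3 (chr11:8431652-8664758), had the most peaks in all, 18 in Ezh2m+/p+ zygotes against 22 in Ezh2m-/p+ zygotes, of which 5 in each list overlapped. Intergenic sequence held 10 and 14 of them, and all 10 of the former and 10 of the latter lay between Tns3 and Igfbp3, which encodes a binding protein of insulin-like growth factors. Igfbp3 itself had 11 and 15 peaks, 1 of each overlapping. The interval between these genes was thus rich in peaks in both genotypes, mostly at different positions. Cobl, of an actin nucleator on the same chromosome, had 13 in each list, 1 of each overlapping.

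Cdkal1, which encodes a tRNA-modifying enzyme, had many peaks and no shared position. Its 12 Ezh2m+/p+ and 18 Ezh2m-/p+ peaks were interleaved along the 664 kb of the gene and just past it without a single overlap, with folds from 5.53 to 56.3 and from 5.07 to 57.4. For example, the Ezh2m+/p+ peak at chr13:29405401-29409599 (fold 7.54) was followed by an Ezh2m-/p+ peak at chr13:29410801-29414199 (fold 32.9). All but 1 of the 30 lay within the gene, in introns for the most part.

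Other genes with many peaks in both lists were Ptprg, of a receptor tyrosine phosphatase, with 9 and 20 peaks of which 2 in each list overlapped, and Reln, which encodes the extracellular protein reelin, with 12 and 13 of which 1 did. Rbms3, the gene of an RNA-binding protein that spans 1057 kb, went the other way with 16 Ezh2m+/p+ and 10 Ezh2m-/p+ peaks, 3 of each overlapping. Hao1, of a liver oxidase, had 15 and 13, all but 2 and 1 of them intergenic, and the microRNA gene Mir3090 on the same chromosome 15 and 16, all intergenic. At both genes 4 peaks of each list overlapped. The pseudogene Mnd1-ps had 6 and 24, the largest excess of Ezh2m-/p+ peaks among these 10 genes, and 5 of the 6 and 4 of the 24 overlapped. None of these peaks lay in the 2.77 kb of the pseudogene itself.

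Genes in 1 list only had fewer peaks. In the Ezh2m+/p+ list they were led by Stim2, a calcium sensor of the endoplasmic reticulum, and Shank2, a scaffold of excitatory synapses, with 6 peaks each, and by the inositol trisphosphate receptor gene Itpr2, the importin gene Ipo5 and 4930512M02Rik with 4 each. All 4 peaks of Itpr2 had folds between 34.8 and 48.3. In the Ezh2m-/p+ list they were led by Bbs9, of a ciliary protein complex, with 10 peaks, and by 4833428L15Rik, the cell adhesion gene Dscaml1 and the Groucho corepressor gene Tle3 with 9 each. Pebp4 had 8, with folds from 5.93 to 82.6. The genes Dscaml1 and 4833428L15Rik overlap on chromosome 9, and all 9 peaks assigned to 4833428L15Rik lay inside Dscaml1 and outside 4833428L15Rik itself.

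**Figure D3:**
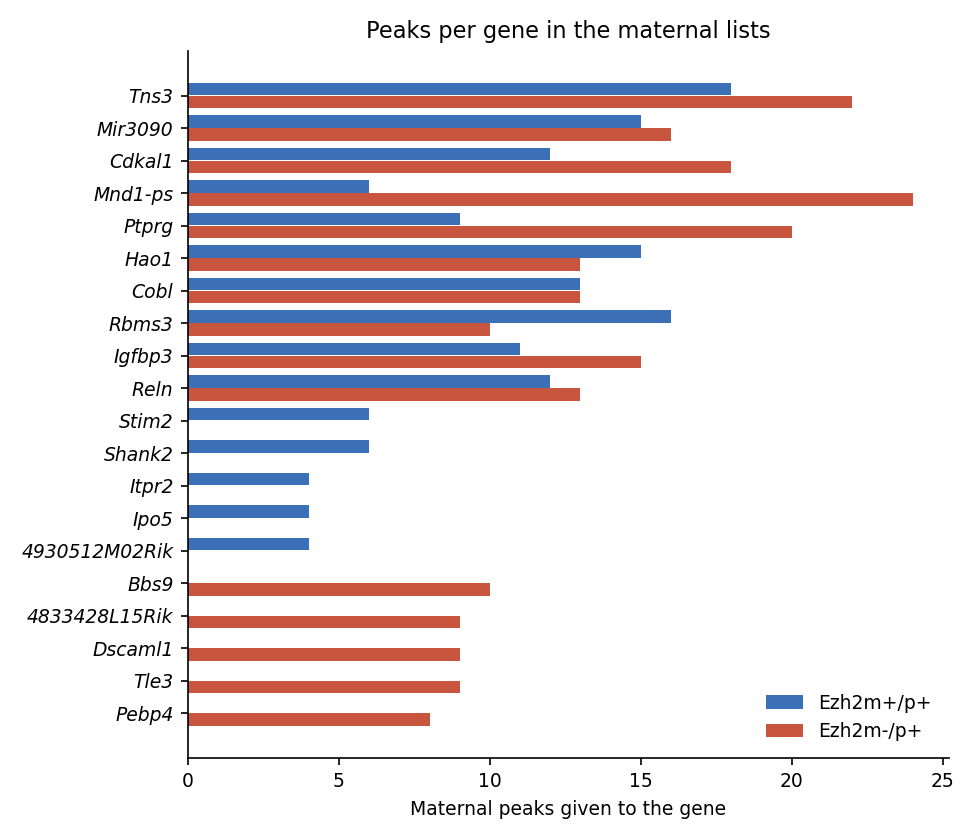
Number of maternal peaks assigned to each named gene (x axis) in Ezh2m+/p+ (blue) and Ezh2m-/p+ zygotes (red), for the 10 genes with most peaks among those with 2 or more in each list and the 5 with most in each list alone. Tns3 has 18 and 22 peaks, whereas the genes found in 1 list have at most 6 (Ezh2m+/p+) and 10 (Ezh2m-/p+).

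Peaks of large fold in one genotype could lie far from any peak of the other. The largest folds without an overlap in Ezh2m+/p+ zygotes were assigned to Gm38404 (127), Syt13, of a synaptotagmin (122), and the adrenergic receptor gene Adra1d (113), with the nearest Ezh2m-/p+ peak 32, 129 and 18.4 kb away. In Ezh2m-/p+ zygotes they were assigned to Rhobtb2 (122), to the promoter of Zfyve21 (116) and to an intron of Olfml2b (108), with the nearest Ezh2m+/p+ peak 3.60, 67.4 and 251 kb away. The longest peaks were an Ezh2m+/p+ domain of 20799 bp assigned to the cytokine gene Csf2 (fold 7.29) and an Ezh2m-/p+ domain of 17599 bp over the start of Pebp4 (fold 35.4), neither with an overlap. The longest with an overlap were intergenic and assigned to Mir3090 (17199 bp, Ezh2m+/p+) and Igfbp3 (11799 bp, Ezh2m-/p+).

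Few non-overlapping peaks were near misses. Of the 5200 non-overlapping Ezh2m+/p+ peaks, 1.42% (1.14 to 1.78%) had an Ezh2m-/p+ peak within 1 kb, 19.5% (18.4 to 20.6%) within 10 kb and 75.3% (74.1 to 76.5%) within 100 kb. For the 9051 non-overlapping Ezh2m-/p+ peaks, which face the shorter list, the shares were 0.840% (0.671 to 1.05%), 12.1% (11.4 to 12.8%) and 59.9% (58.8 to 60.9%). Most non-overlapping peaks thus had a peak of the other genotype within 100 kb, the length of a large gene. The share that the density of the lists alone would give was not computed at any of these distances.

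Genes with peaks in both genotypes were long. Protein-coding genes had a median length of 17.3 kb, those with overlapping peaks 68.6 kb and those with separate peaks in both lists 70.2 kb. Genes in the Ezh2m+/p+ list alone had a median of 30.6 kb, those in the Ezh2m-/p+ list alone 32.3 kb and those in neither 13 kb. Genes over 100 kb made up 11.2% of all protein-coding genes, 39.7% (35.1 to 44.5%) of those with overlapping peaks, 39.6% (37.0 to 42.1%) of those with separate peaks, and 17.2% (15.3 to 19.4%) and 18.4% (17.0 to 19.9%) of those in 1 list. Among genes in both lists, the length was thus close whether or not the positions overlapped. These shares depend on the gene model. Taken list by list, 39.5% (Ezh2m+/p+) and 39.6% (Ezh2m-/p+) of genes with overlapping peaks and 30.3% and 27.1% of those with non-overlapping peaks were over 100 kb. By the length of the assigned transcript these values were 19.96% and 20.1%, and 17.4% and 16.7%, and by the gene that holds the centre of the peak 57.2% and 56.6%, and 46.9% and 41.3%.

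The share of genes with a peak rose with gene length in both genotypes. Of genes up to 10 kb, 5.84% (5.34 to 6.38%) had an Ezh2m+/p+ and 9.42% (8.79 to 10.1%) an Ezh2m-/p+ peak, and of genes over 300 kb, 48.7% (44.5 to 52.8%) and 54.0% (49.9 to 58.1%). Peaks per Mb of gene body varied much less. The density of peak centres was 2.04 per Mb for Ezh2m+/p+ peaks and 3.96 for Ezh2m-/p+ peaks in genes up to 10 kb, 3.53 and 5.80 in genes of 100 to 300 kb, and 2.36 and 3.61 in genes over 300 kb. The longest genes, which had a peak most often, were therefore below the density over all gene bodies of 2.92 and 4.77 per Mb.

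**Figure D4:**
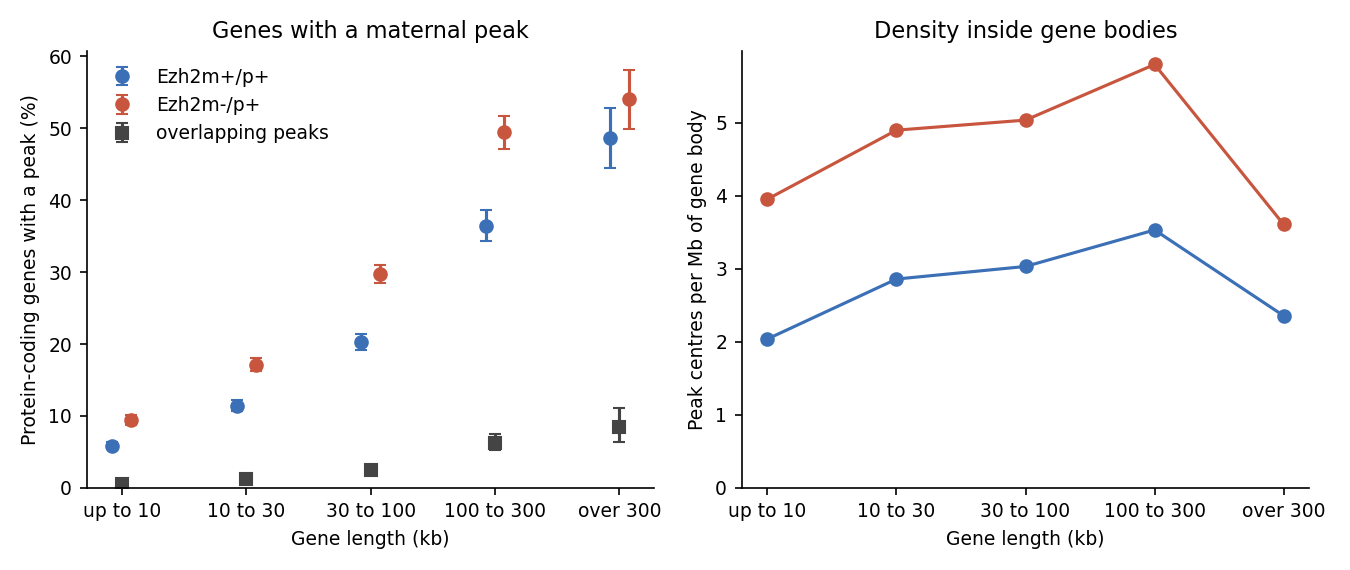
Left, share of protein-coding genes with a maternal peak (y axis, %) by gene length (x axis, kb) in Ezh2m+/p+ (blue) and Ezh2m-/p+ zygotes (red) and with overlapping peaks (black squares), with 95% Wilson intervals, and right, peak centres per Mb of gene body. The share rises from 5.84% to 48.7% and from 9.42% to 54.0%, while the density stays between 2.04 and 3.53 and between 3.61 and 5.80 per Mb.

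Annotation categories were close in the overlapping and the non-overlapping class. Distal intergenic sequence held 32.2% (28.4 to 36.2%) of overlapping and 34.1% (32.8 to 35.4%) of non-overlapping Ezh2m+/p+ peaks, and 32.6% (28.8 to 36.6%) and 36.0% (35.0 to 37.0%) of the Ezh2m-/p+ peaks. Introns held 34.6% (30.7 to 38.7%) and 31.1% (29.9 to 32.4%) in Ezh2m+/p+ and 34.2% (30.4 to 38.3%) and 31.5% (30.6 to 32.5%) in Ezh2m-/p+ zygotes. The promoter categories held 14% (11.3 to 17.1%) and 16% (15.0 to 17.0%) in the former, and 14.6% (11.9 to 17.8%) and 16.7% (15.9 to 17.4%) in the latter. The intervals of the classes overlapped in each of these comparisons, and the median distance to a start site was between 20.04 and 21 kb in all 4 classes. Protein-coding genes were between 85.4% and 88.1% of the genes of each class, and most others were lncRNA genes, at 8.60% to 11.1%.

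Gene classes differed much more from each other than between the genotypes. Of 18 classes of genes, 16 had more members with a peak in the Ezh2m-/p+ than in the Ezh2m+/p+ list and 2 had equal numbers, beside the shares of 21.1% and 14.6% over all protein-coding genes. The intervals of the lists overlapped in 17 classes. The exception was zinc finger proteins, with 39 of 486 genes (8.02%, 5.93 to 10.8%) in the Ezh2m+/p+ list and 73 (15.0%, 12.1 to 18.5%) in the Ezh2m-/p+ list, both below the share over all genes.

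Chemosensory receptors and histones lay below the share over all genes in both lists, Hox genes in the Ezh2m+/p+ list and ribosomal protein genes in the Ezh2m-/p+ list. Of 1463 olfactory and vomeronasal receptor genes, with a median length of 0.951 kb, 24 (1.64%, 1.10 to 2.43%) had an Ezh2m+/p+ and 45 (3.08%, 2.31 to 4.09%) an Ezh2m-/p+ peak. Of 67 histone genes, 1 and 6 did. Of the 39 Hox genes, the homeodomain factors of the body axis and classical targets of Polycomb, 0 were in the Ezh2m+/p+ list, which allows a share of up to 8.97%, and 4 (10.3%, 4.06 to 23.6%) in the Ezh2m-/p+ list. Cytosolic ribosomal protein genes had 8 of 81 (9.88%, 5.09 to 18.3%) in each list, with Rps24, Rplp1, Rps14 and Rpl37a in both.

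Other developmental regulators lay above the share over all genes in both lists. Homeodomain factors other than Hox had 28 of 125 (22.4%, 16 to 30.5%) and 42 (33.6%, 25.9 to 42.3%), with Lhx9, Cux1 and Lhx2 (largest folds 36.2 and 38.2) in both. Sox, forkhead, Gata and Tbx factors had 25 of 84 (29.8%, 21 to 40.2%) and 33 (39.3%, 29.5 to 49.98%), with Foxn3 (4 and 10 peaks, up to 55.0 and 75.7), Foxa2 (53.6 and 45.9), Sox5 and Foxo3 in both. These genes are short, with medians of 8.83 and 8.01 kb, and many of their peaks were intergenic. In the Wnt, Fgf, Bmp and Hedgehog class, 30 of 128 (23.4%, 16.9 to 31.5%) and 37 (28.9%, 21.8 to 37.3%) had a peak, with the ligand gene Bmp2 (61.7 and 47.4), the activin receptor gene Acvr2a (4 and 11 peaks), the inhibin subunit gene Inhbb and the transcription factor gene Gli2 in both.

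Without distal intergenic peaks, the Ezh2m+/p+ shares of these classes came closer to that over all genes, while in the Ezh2m-/p+ list the homeodomain factors and the Sox, forkhead, Gata and Tbx class stayed above it. The shares over all protein-coding genes were then 10.8% and 15.7%. Homeodomain factors had 16 (12.8%, 8.03 to 19.8%) and 31 (24.8%, 18.1 to 33.0%), the Sox, forkhead, Gata and Tbx class 10 (11.9%, 6.60 to 20.5%) and 21 (25.0%, 17.0 to 35.2%), and the Wnt, Fgf, Bmp and Hedgehog class 19 (14.8%, 9.71 to 22.0%) and 27 (21.1%, 14.9 to 29.0%). The Ezh2m+/p+ interval held the share over all genes in all 3 classes, and the Ezh2m-/p+ interval did so in the last.

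Among genes of the cell surface and matrix, collagens, laminins and integrins had 26 of 86 (30.2%, 21.5 to 40.6%) and 43 (50%, 39.7 to 60.3%), both above the share over all genes. The median length of this class was 75.3 kb, and 20.3% and 29.8% of all protein-coding genes of 30 to 100 kb had a peak. Itga8 had folds up to 41.5 and 102, and Col23a1 up to 36.2 and 42.8, and this class had 0 overlapping peaks among 44 in Ezh2m+/p+ zygotes and 0 among 71 in Ezh2m-/p+ zygotes, beside 9.47% and 5.78% over all peaks. Cadherins and protocadherins, with 12 (10.9%, 6.35 to 18.1%) and 19 (17.3%, 11.3 to 25.4%) of 110 genes, also had 0 overlapping among 24 and 42 peaks, those of Cdh26, Cdh13, Fat3 and Cdh20 included. At these shares, few overlapping peaks would be counted among so few, and nothing is read from the counts of 0.

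Genes of excitable cells and transport had peaks at or above the share over all genes, which takes no account of gene length. Of protein-coding genes of 30 to 100 kb, 20.3% and 29.8% had a peak, and of those of 100 to 300 kb, 36.5% and 49.4%. The channel, axon guidance and solute carrier classes had median lengths of 46.7, 53.4 and 30.4 kb. Voltage-gated and potassium channels had 48 of 141 (34.0%, 26.7 to 42.2%) and 57 (40.4%, 32.7 to 48.7%), with Cacna1d (77.7 and 48.2) and Kcna3 (44.2 and 44.4) in both. Axon guidance genes had 16 of 71 (22.5%, 14.4 to 33.5%) and 28 (39.4%, 28.9 to 51.1%), with Epha4 (49.6 and 48.9), Sema6d, Sema5b and Nrp2 in both. The long genes of glutamate and GABA receptors, with a median of 183 kb, had 12 (25.5%, 15.3 to 39.5%) and 14 (29.8%, 18.6 to 44.0%) of 47, with Grin2a, Gria1, Gabbr2 and Gabrb2 in both. These shares were below those of genes of 100 to 300 kb, which the Ezh2m+/p+ interval held and the Ezh2m-/p+ interval did not. Solute carriers had 83 of 360 (23.1%, 19 to 27.7%) and 97 (26.9%, 22.6 to 31.8%), with 9 peaks of Slc4a3 in each list.

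**Figure D5:**
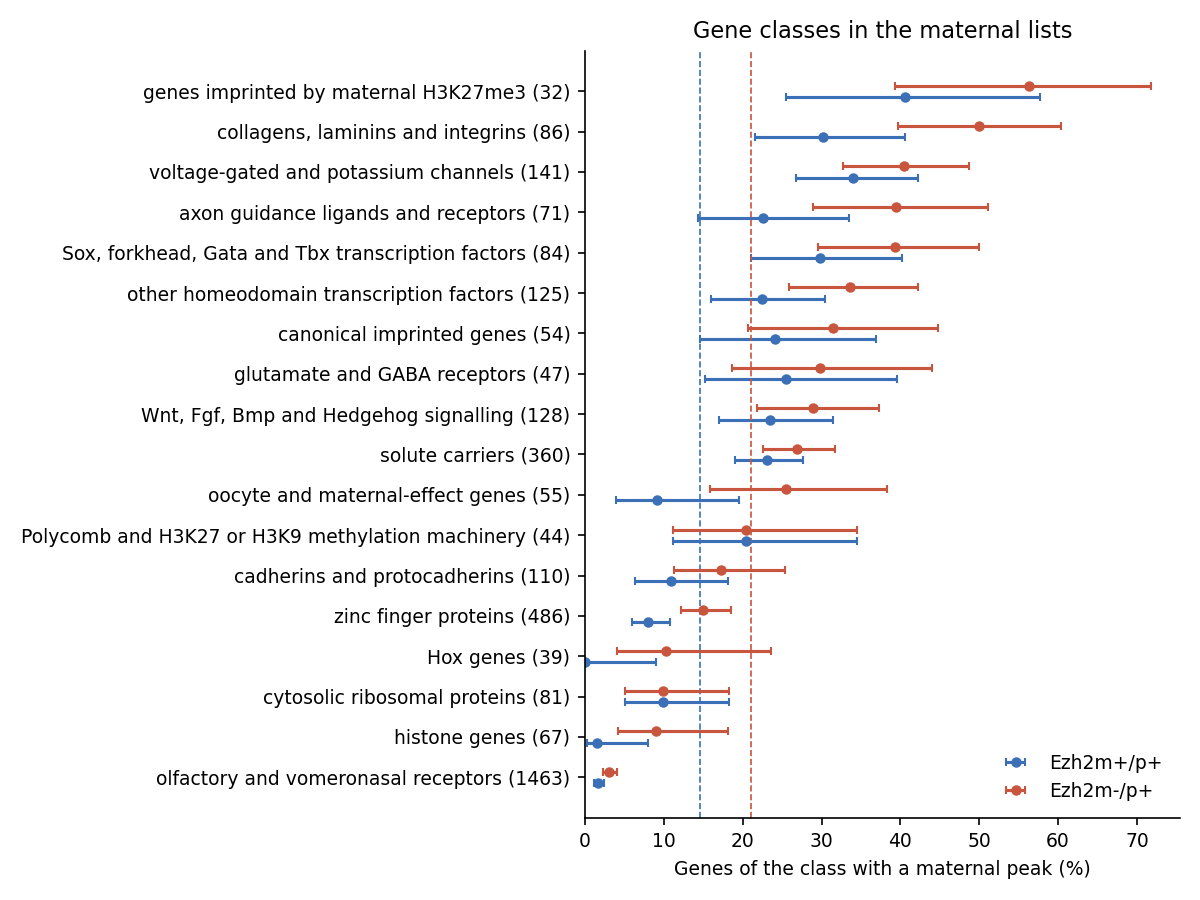
Share of the genes of each class with a maternal peak (x axis, %) in Ezh2m+/p+ (blue) and Ezh2m-/p+ zygotes (red), with 95% Wilson intervals, the number of genes in brackets and dashed lines at the shares over all protein-coding genes, 14.6% and 21.1%. Olfactory and vomeronasal receptors stand at 1.64% and 3.08%, and genes imprinted by maternal H3K27me3 at 40.6% and 56.3%.

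Genes that maternal H3K27me3 is known to imprint had the highest share in each list, with wide intervals, beside 14.6% and 21.1% of all protein-coding genes. Of 32 genes on such a list, written from general knowledge, 13 (40.6%, 25.5 to 57.7%) had an Ezh2m+/p+ and 18 (56.3%, 39.3 to 71.8%) an Ezh2m-/p+ peak, and 10 had both. Their median length was 57.0 kb, against 17.3 kb for all protein-coding genes. Sfmbt2, of a Polycomb-associated protein, had 2 and 4 peaks, and Gab1, of a signalling adaptor, 2 and 1, with a largest fold of 59.0 (Ezh2m+/p+) and 5.55 (Ezh2m-/p+). Rbms1 had 5 and 7 peaks, Runx1 3 and 5, Etv6 1 and 6, Inhbb 4 and 4, Flt1 2 and 2, Platr20 2 and 1, and Sall3 1 and 2. Only Gramd1b, with 1 and 2 peaks, had peaks that overlapped between the genotypes. Bbx, 1700125H03Rik and Slc38a1 had peaks in the Ezh2m+/p+ list alone, and Smoc1, Jade1, Tle3, Enc1, Mas1, Sh3gl3, Platr4 and Mbnl2 in the Ezh2m-/p+ list alone.

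Canonical imprinted genes, which depend on DNA methylation, had 13 of 54 (24.1%, 14.6 to 36.9%) and 17 (31.5%, 20.7 to 44.7%). Over all protein-coding genes the shares were 14.6%, at the edge of the first interval, and 21.1%, inside the second. Both lists held Grb10, a growth factor receptor adaptor (3 and 6 peaks), the noncoding RNA gene Peg13 (2 and 2), Trappc9, Inpp5f, Atp10a, Ddc, Airn, Blcap, Phlda2 and the deiodinase gene Dio3 (40.2 and 42.8), of which only Grb10 had overlapping peaks. Mest, Rasgrf1 and Ppp1r9a had a peak in Ezh2m+/p+ zygotes alone, and Dlk1, Igf2r, Commd1, Kcnq1ot1, Herc3, Kcnk9 and Mirg in Ezh2m-/p+ zygotes alone. Genes with overlapping peaks were 3.13% and 1.85% of the imprinted classes, near the 1.91% of all protein-coding genes.

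Genes of Polycomb and of H3K27 or H3K9 methylation had equal numbers in both lists, 9 of 44 each (20.5%, 11.2 to 34.5%). This interval holds the 14.6% and 21.1% of all protein-coding genes. Phc2, Asxl2 and Pcgf5 were in both lists (6.82%, 2.35 to 18.2%, near the 8.44% of all protein-coding genes). In the Ezh2m+/p+ list alone were Ezh1, the homologue of the deleted enzyme (fold 5.03), Suz12 (36.2), the demethylase genes Kdm2b (up to 37.5) and Kdm6b (5.53), Phc1 and Cbx6 (5.03 each). In the Ezh2m-/p+ list alone were Aebp2, of a PRC2 accessory subunit (up to 60.4), Rnf2, of the H2A ubiquitin ligase of PRC1 (3 peaks, up to 42.1), Ehmt1, Lcor, Asxl1 and Asxl3.

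Oocyte and maternal-effect genes had 5 of 55 (9.09%, 3.95 to 19.6%) and 14 (25.5%, 15.8 to 38.3%), and all 5 of the former, the germ cell helicase gene Ddx4, the DNA methyltransferase genes Dnmt3a and Dnmt3b, Pms2 and Basp1, were in both lists. The maintenance methyltransferase gene Dnmt1 (fold 42.8), Dppa3 (22.2), Nobox (21.4), Lhx8 (40.5), Dazl, Kit, Tcl1, Yap1 and Ooep had 1 peak each in Ezh2m-/p+ zygotes alone. The intervals of the lists overlap for this class too, and they hold the shares over all protein-coding genes, 14.6% and 21.1%. Genes in both lists were 9.09% of the class, near the 8.44% of all protein-coding genes.

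Along the chromosomes, the numbers of peaks per Mb in the lists had a Spearman rho of 0.90 over 20 chromosomes, which share their sequence and mappability. Ezh2m-/p+ peaks exceeded Ezh2m+/p+ peaks on each of them, by a ratio with a median of 1.68 and a range from 1.26 on chromosome 2 to 2.83 on chromosome X. Overlapping peaks were from 4.23% (chromosome 8) to 13.5% (chromosome 12) of the Ezh2m+/p+ peaks of a chromosome and from 2.52% (chromosome X) to 8.97% (chromosome 2) of the Ezh2m-/p+ peaks. Few peaks of either class met a paternal peak. The share that placement alone would give was not computed, so nothing is read from how low these shares were. Of the 544 overlapping and 5200 non-overlapping Ezh2m+/p+ peaks, 2 and 22 met a paternal peak of the same zygotes, and 3 of 555 and 37 of 9051 did so in Ezh2m-/p+ zygotes, which is between 0.368% and 0.541% in every class.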

How the data were processed

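Each H3K27me2 library was a single ULI-NChIP-seq sample of zygotes, with 1 input library per genotype. Reads were trimmed (Trimmomatic 0.38), aligned to the mm10 genome (Bowtie2), cleared of duplicates (Picard) and assigned to a parent by strain variants (SNPsplit) by the authors. Peaks came from SICER with the input as control, were limited by the authors to lengths over 1000 bp and folds over 5, and were annotated by ChIPseeker. As listed, the shortest peaks run over 999 bp. The deposited lists give the position of each peak, its nearest gene and the fold, a ratio of H3K27me2 to input reads scaled by the peak caller. The authors also deposited the covered fraction of every chromosome, given here in percent. Neither file gives read counts, so intervals cover counting of peaks only, and the splitting by strain limits peaks to sequence with variants.

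Peaks were compared with Python 3.11.15, numpy 2.4.6, pandas 2.3.3 and scipy 1.17.1, sequence was read with pysam 0.24.0, and figures were drawn with matplotlib 3.10.9. In simulated lists of 4000 peaks, all 1000 overlaps made were found. Gene lengths and types came from the RefSeq annotation of GRCm38.p6, and 6863 of 6867 gene identifiers had a symbol there. Named genes were those of the 12 overlapping pairs with the largest smaller fold, the 10 genes with most peaks among genes with 2 or more in each list, the 5 with most in each list alone, the 3 largest folds without overlap and the longest peaks of each list, up to 4 genes of each class found in both lists by the smaller fold, and every gene with a peak in the small classes. Some genes that this rule names are not reported here. The members, gene classes and tests were chosen with earlier results of these data known. Alternatives changed the fold, the length, the size of the lists, the overlap required, the chromosomes, the peaks counted for a gene and the measure of gene length. A fold up to 10 and the gene that holds the peak centre were added after seeing the data.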

Additional observations from a re-analysis of the deposited data

How the results depend on the processing

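Of the planned values of the main comparisons 42 left the 95% interval of the value as reported and 44 did not, and 6 added after seeing the data left it. Of the values of single gene classes and of sequence, 13 left it and 71 did not. Some of those that left it, among them most annotation shares with a fold over 10, have an interval of their own that holds the value as reported. The share of overlapping peaks, in Ezh2m+/p+ and then Ezh2m-/p+ zygotes, was 5.90% and 1.91% with a fold over 10 in both lists, 3.39% and 4.90% with a fold up to 10 in both (added), where the order of the lists turned, 4.94% and 2.96% with a reciprocal overlap of 50%, 6.53% and 4.41% with the centre inside the other peak, 10.8% and 6.57% with peaks extended by 1000 bp, and 6.01% and 4.53% of base pairs. It was 6.86% and 6.13% with a length over 2000 bp, and 5.61% and 5.69% with lists of equal size, where the intervals of the lists overlap. The share of genes also in the other list was 55.9% and 23.3% with a fold over 10, 43.7% and 43.1% with lists of equal size, 50.02% and 34.1% without distal intergenic peaks, 20.4% and 12.2% with peaks within 3 kb of a start site, and 43.9% for Ezh2m+/p+ genes with a length over 2000 bp. Genes over 100 kb in the overlapping class were 19.96% and 20.1% by transcript length and 57.2% and 56.6% by the gene that holds the centre (added). In the non-overlapping class they were 17.4% and 16.7%, 46.9% and 41.3% by the same, 35.7% and 31.7% without distal intergenic peaks, and 39.7% and 39.1% with peaks in place of genes, where the overlapping class had 41.9% and 43.0%. The median length of overlapping Ezh2m-/p+ peaks was 2799 bp with the reciprocal overlap. With a fold over 10, promoters held 10.9% of overlapping peaks in both lists, and 14.4% and 15.9% of non-overlapping peaks, introns 32.6% of non-overlapping peaks in both and 39.9% of overlapping Ezh2m-/p+ peaks, distal intergenic sequence 35.4% of non-overlapping Ezh2m+/p+ peaks, and 14.4% and 4.79% of non-overlapping peaks were within 10 kb of the other list. With a length over 2000 bp, distal intergenic sequence held 28.1% of overlapping Ezh2m+/p+ peaks and introns 29.2% of non-overlapping Ezh2m-/p+ peaks. The causes were not tested. No paired analysis was possible because each genotype had 1 library, and for the same reason no replicate could be left out. The lists do not give the reads behind a peak.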

Other observations

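In windows of 1 Mb, 1841 held a maternal peak, 1407 of them in both lists, 94 in the Ezh2m+/p+ list alone and 340 in the Ezh2m-/p+ list alone. Ezh2m-/p+ peaks were more numerous in 1267 windows, Ezh2m+/p+ peaks in 364, and numbers were equal in 210. The largest excess of Ezh2m-/p+ peaks was on chromosome 9 between 45 and 46 Mb, with 3 against 47 peaks at Dscaml1, 4833428L15Rik and Cep164, among others. The window on chromosome 1 between 151 and 152 Mb, with Ivns1abp and Niban1, among others, had 7 against 37. On chromosome 14, the window from 69 to 70 Mb, with Pebp4 and Rhobtb2, had 2 against 31, and that from 70 to 71 Mb, with Slc39a14, Bmp1 and Piwil2, had 1 against 31. The largest excess of Ezh2m+/p+ peaks was on chromosome 5 between 35 and 36 Mb, with 15 against 5 at Dok7 and Lrpap1, among others, followed, with an equal excess, by chromosome 11 between 51 and 52 Mb, with 12 against 5 at Col23a1 and Platr20, among others, and chromosome 4 between 131 and 132 Mb, with 9 against 2 at A930031H19Rik and Ptpru.

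Peak names ran up to 21103 in the Ezh2m+/p+ and 33146 in the Ezh2m-/p+ list, of which 27.2% and 29.0% were listed.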
